A study of Paeonia ostii with 18 samples.

Results

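Transcripts of the ubiquitin system were followed in flower buds of the tree peony Paeonia ostii 'Feng Dan Bai' during chilling, with 35 of the 14957 probes of a custom 1-colour Agilent array. They were chosen by their descriptions in lists of probes that the study had found changing on these same arrays. A probe entered when its description held ubiquitin, F-box, proteasome, cullin or, in capitals, RING, without "ribosomal protein". The lists were held in part, with 1999 rows of each of 3 lists, and these rows describe 3720 probes. One further match was left out because the study placed it in its gibberellin list. The descriptions name the closest match in another species, so a probe is called here by its number and by that match. The 35 fall into 4 ubiquitin precursors, 1 activating enzyme (E1), 1 conjugating enzyme (E2), 16 ligases or RING finger proteins (E3), 10 F-box proteins, 2 proteasome subunits and 1 probe for another kind of protein. The last is FLC, which in Arabidopsis encodes a repressor of flowering. Its description matched through the letters RING inside the word FLOWERING, which leaves 34 probes described as parts of the ubiquitin system. For 3 of them, CUST_12402, CUST_5892 and CUST_8908, the match to the named protein was weak.

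The plants were 4 years old and stood at 0 to 4 °C, and the chilled buds were taken after 6, 12, 15, 18 and 24 d, with buds at 0 d as the unchilled stage. The study staged the buds by bud break and blossom in a greenhouse. It regarded those chilled for less than 18 d as endo-dormant and those chilled for longer as eco-dormant. It placed 18 d late in endo-dormancy or early in eco-dormancy. Each time had 3 replicates on 1 array each, and a replicate pooled 3 buds from each of 3 plants. A level is given as log2 intensity after normalization, so a difference of 1 is a 2-fold change, and levels of different probes cannot be set against each other. Because the RNA came from whole buds, fewer cells of a type and less RNA per cell cannot be told apart. YAB3 and AGL20, genes that mark lateral organs and the flowering shoot apex in Arabidopsis, were well above background on all 18 arrays. AGL20 averaged 13.41 over the chilled times and 12.05 at 0 d, and whether this difference takes part in the results below was not tested.

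The 3 slides of the array divided the times. On slide 1 were the 0 and 6 d samples with 12 d replicates 1 and 2, and on slide 2 were 12 d replicate 3, the 15 and 18 d samples and 24 d replicate 1. The other two 24 d samples were on slide 3. Comparisons of 6 with 0 d and of 18 with 15 d stay within a slide, and the others cross slides. Replicate 2 of 12 d stood apart from the other arrays. Its mean correlation with arrays of other times was 0.954, against 0.964 to 0.979 for the other 17 arrays, and it held the highest value of 12.5% and the lowest of 15.6% of all probes. Replicate 3 of 0 d came next, with 0.964, the lowest value of 15.0% of all probes and the lowest share of probes well above background, 82.2%. The share of probes well above background ran from 82.2 to 96.5% over the arrays, and no spot was saturated. Of the 35 probes, 28 were well above background on all 18 arrays, as were 75.5% of all probes.

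Ubiquitin is a small protein that cells attach to other proteins. It is made as precursors, either chains of ubiquitin units or ubiquitin fused to another protein, that are cut to free it. An E1 enzyme activates it, an E2 enzyme carries it, and an E3 ligase places it on a chosen target. In many plant E3 ligases a RING protein recruits the E2, while an F-box protein, held by SKP1 in a complex with a cullin, picks the target. Chains of ubiquitin send the target to the 26S proteasome, a 20S core that cuts proteins and a regulatory particle that unfolds them. In plants this system removes regulators of hormone, light and cold signalling.

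The time means were first set beside each other over the 6 times. The range from the lowest to the highest time mean ran from 0.26 to 3.19 on the log2 scale, with a median of 0.77, against 0.70 for all probes. The median SD between the arrays of a time was 0.20 for these probes and 0.25 for all probes. The highest mean lay at 0 d for 7 probes (23.7% of all probes), at 6 d for 6 (9.56%), at 12 d for 7 (14.8%), at 15 d for 4 (11.3%), at 18 d for 7 (20.9%) and at 24 d for 4 (19.6%). The lowest lay at 0 d for 5 (27.5% of all probes), at 6 d for 5 (10.1%), at 12 d for 3 (17.0%), at 15 d for 5 (12.0%), at 18 d for 10 (16.6%) and at 24 d for 7 (16.7%). Without replicate 2 of 12 d, the highest mean lay at 12 d for 4 probes and at 0 d for 9. The 35 probes thus had no common course over chilling, as the map of time means shows.

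**Figure D1:**
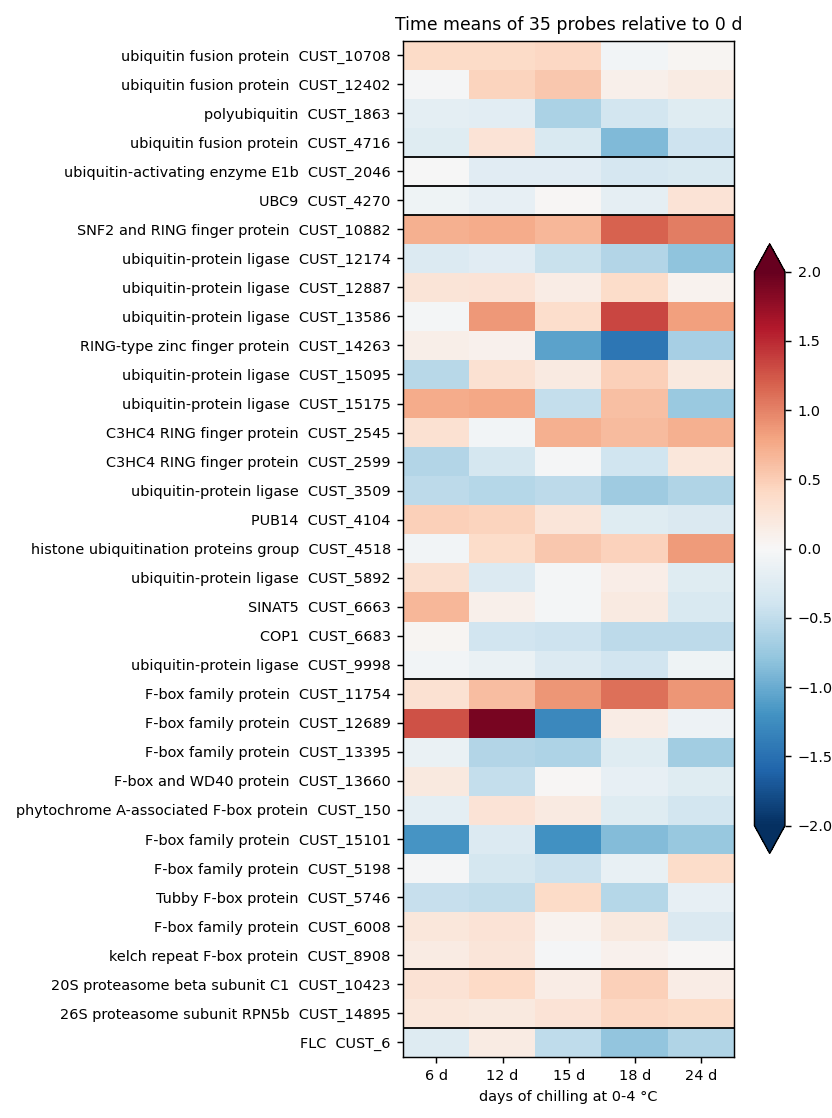
Time mean minus 0 d mean (log2 intensity, colour) of the 35 probes (rows, grouped by role with lines between roles) at 6, 12, 15, 18 and 24 d of chilling (columns). Red is above and blue below 0 d. The rows mix both colours within the E3 and F-box groups, and both proteasome rows are red at every time.

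The study had selected these probes for differences among the times, so the counts of the next sentences are a description from which nothing is read. In limma's moderated F over the 6 times with Benjamini-Hochberg adjustment, 4 of the 35 had an adjusted p under 0.05, against 5.72% of all probes. These were the E3 probes CUST_10882, CUST_12174, CUST_15175 and CUST_2545. With a plain F test per probe and an unadjusted p under 0.05, the count was 16, against 26.8% of all probes. Just inside this limit were CUST_15101 and CUST_6008, with ranges of 1.21 and 0.56, and just outside it CUST_4716 and CUST_12402, with 1.17 and 0.57. Between 18 and 0 d, 5 probes were higher and 1 lower at an adjusted p under 0.05, and of all probes 8.78% were higher and 7.00% lower, or 15.8% in all. Between 24 and 6 d no member passed in limma, and 0.254% of all probes passed. At an unadjusted p under 0.05 the counts were 12 of 35 and 15.9% of all probes. Between 6 and 0 d no member passed, against 0.0802% of all probes, and 7 had an unadjusted p under 0.05, against 15.6% of all probes. Between 18 and 15 d no member passed, against 0.0201% of all probes, and 8 had an unadjusted p under 0.05, against 8.18% of all probes.

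The positions of single arrays are likewise a description. On slide 1, every 6 d array lay above every 0 d array for 10 of the 35 probes and below for 3, against 11.9% and 10.4% of all probes. On slide 2, every 18 d array lay above every 15 d array for 10 probes and below for 6, against 12.2% and 8.84%. Between 24 and 6 d, which crosses slides, the counts were 7 above and 10 below, against 13.6% and 12.0%. Between 24 and 18 d they were 6 above and 7 below, against 8.75% and 10.7%. All 15 chilled arrays lay above all 0 d arrays for CUST_10882 and the proteasome probe CUST_10423, and below them for the ligase CUST_3509. For all probes these shares were 3.12% above and 2.72% below.

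The 4 ubiquitin precursors are described array by array. None passed over the 6 times (limma's moderated F, adjusted p of 0.135 to 0.534). CUST_10708, a ubiquitin fusion protein, had 10.62, 10.80 and 10.58 at 0 d, 11.29, 10.86 and 10.98 at 6 d, 11.06, 10.98 and 11.12 at 12 d, 11.12, 11.06 and 11.07 at 15 d, 10.96, 10.60 and 10.32 at 18 d, and 10.59, 10.64 and 10.90 at 24 d. Its 6, 12 and 15 d arrays all lay above its 0 d arrays, and its 18 d arrays all lay below its 15 d arrays. CUST_4716, also described as a ubiquitin fusion protein, had 10.27, 10.36 and 10.59 at 0 d, 10.19, 9.90 and 10.38 at 6 d, 10.24, 11.73 and 10.10 at 12 d, 10.04, 10.08 and 10.18 at 15 d, 9.72, 9.32 and 9.53 at 18 d, and 10.08, 10.05 and 9.88 at 24 d. The 18 d arrays were its lowest, below all arrays of every other time. The value of 11.73 came from replicate 2 of 12 d, and without it the 12 d mean was 10.17 and not 10.69.

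Fusion precursors pair ubiquitin with another protein, often one of the ribosome, and polyubiquitin genes hold repeated ubiquitin units. CUST_1863, a polyubiquitin, had 17.32, 17.46 and 16.26 at 0 d, 16.83, 16.95 and 16.68 at 6 d, 16.93, 17.06 and 16.41 at 12 d, 16.45, 16.17 and 16.53 at 15 d, 16.54, 16.91 and 16.51 at 18 d, and 16.58, 16.78 and 16.97 at 24 d. Replicates 1 and 2 of 0 d were its highest arrays, while replicate 3 of 0 d was near the lowest, so the times overlapped. CUST_12402, the weakly matched fusion protein, had 15.12, 14.84 and 15.12 at 0 d, 15.07, 14.97 and 14.93 at 6 d, 15.31, 15.29 and 15.78 at 12 d, 15.32, 15.78 and 15.58 at 15 d, 14.81, 15.14 and 15.41 at 18 d, and 14.86, 15.29 and 15.43 at 24 d. Its 12 and 15 d arrays lay above all its 0 and 6 d arrays, and its later arrays overlapped both.

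The E1 and E2 probes had narrow ranges of time means, 0.34 and 0.45. Neither passed over the 6 times (limma's moderated F, adjusted p of 0.354 and 0.491). CUST_2046 was described as a ubiquitin-activating enzyme E1b. The study gives it the symbol SAE2, in Arabidopsis a subunit of the enzyme that activates SUMO, a relative of ubiquitin. It had 9.33, 9.47 and 9.77 at 0 d, 9.53, 9.57 and 9.41 at 6 d, 9.23, 9.32 and 9.31 at 12 d, 9.28, 9.28 and 9.34 at 15 d, 9.32, 9.09 and 9.13 at 18 d, and 9.03, 9.06 and 9.55 at 24 d. Its 12 and 18 d arrays all lay below its 0 d arrays, and its 24 d arrays did not. CUST_4270 was described as UBC9, a ubiquitin-conjugating enzyme in Arabidopsis, and had 14.97, 14.86 and 14.56 at 0 d, 14.94, 14.50 and 14.73 at 6 d, 14.17, 15.01 and 14.74 at 12 d, 14.79, 14.83 and 14.86 at 15 d, 14.42, 14.49 and 14.95 at 18 d, and 15.08, 15.07 and 15.08 at 24 d. The 24 d arrays were its highest, above all arrays of every other time.

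**Figure D2:**
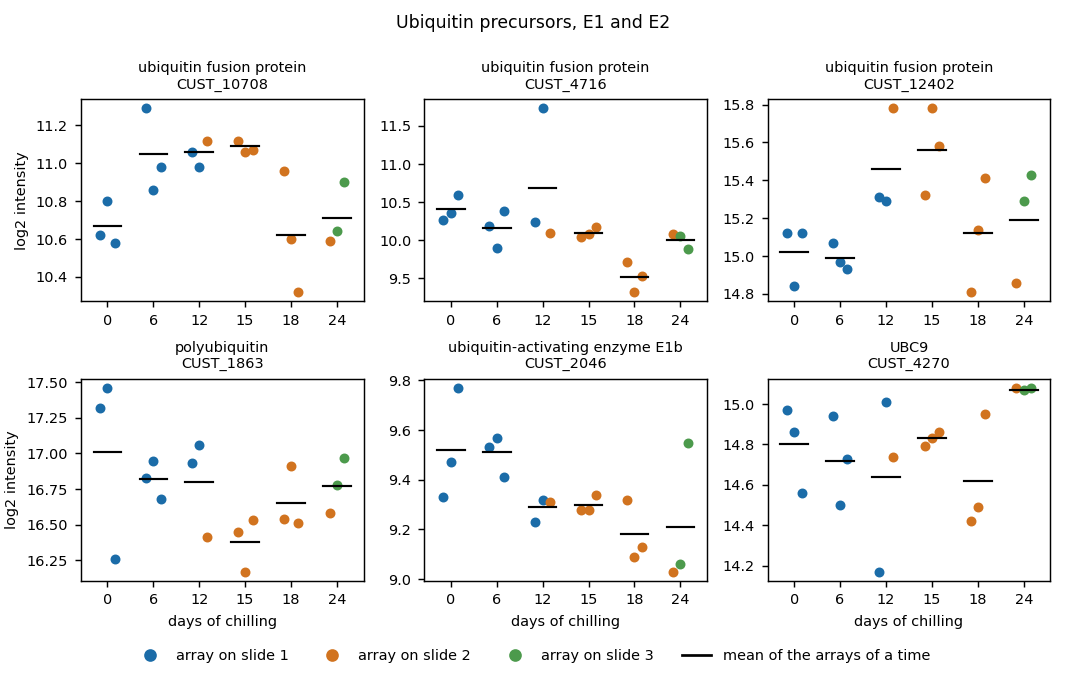
Log2 intensity of the 4 ubiquitin precursors, the E1 probe and the E2 probe (panels) against days of chilling, with 1 point per array coloured by slide and a line at each time mean. CUST_4716 was lowest at 18 d, with a mean of 9.52, and CUST_4270 was highest at 24 d, with a mean of 15.07.

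The 16 E3 probes include proteins described as ubiquitin-protein ligases, RING finger proteins and ligases known by name in Arabidopsis. Among those well above background on all arrays, the widest range of time means, 1.58, belonged to CUST_14263, a RING-type zinc finger protein. It had 8.39, 7.99 and 10.46 at 0 d, 9.52, 8.79 and 8.88 at 6 d, 8.87, 10.49 and 7.72 at 12 d, 7.30, 7.51 and 8.80 at 15 d, 7.12, 7.92 and 7.43 at 18 d, and 7.54, 7.25 and 10.01 at 24 d. At 0, 12, 15 and 24 d a single array stood more than 1 above the others, and the SDs there ran from 0.81 to 1.52. Its 18 d arrays all lay below its 0 and 6 d arrays.

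CUST_15175, a ubiquitin-protein ligase, had a range of 1.52. It had 10.97, 10.50 and 11.18 at 0 d, 11.57, 11.71 and 11.59 at 6 d, 12.24, 11.73 and 11.00 at 12 d, 10.02, 10.18 and 11.03 at 15 d, 12.02, 11.27 and 11.16 at 18 d, and 9.93, 10.06 and 10.44 at 24 d. Its arrays moved apart in both comparisons within slides, with 6 d above 0 d and 18 d above 15 d, and its 24 d arrays lay below all arrays of 0, 6, 12 and 18 d. CUST_13586, another ubiquitin-protein ligase with a range of 1.37, had 12.95, 11.77 and 12.75 at 0 d, 12.13, 12.16 and 13.07 at 6 d, 13.32, 13.63 and 13.11 at 12 d, 13.67, 11.98 and 12.89 at 15 d, 13.50, 14.52 and 13.44 at 18 d, and 13.31, 13.21 and 13.41 at 24 d. Its 12, 18 and 24 d arrays all lay above its 0 d arrays, while its 6 and 15 d arrays overlapped them.

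The named ligases differed less. PUB14, a U-box ligase (CUST_4104), had means of 13.29 ± 0.08 at 6 d and 12.81 ± 0.18 at 0 d (SD, n = 3 each), and 12.57 ± 0.10 at 18 d and 13.05 ± 0.35 at 15 d. SINAT5, a RING ligase that acts on an auxin-signalling protein in Arabidopsis (CUST_6663), had 13.15 ± 0.33 at 6 d and 12.49 ± 0.37 at 0 d, with overlapping arrays. COP1, the RING ligase that represses light responses (CUST_6683, with the study's symbol SPA1), was well above background on 15 of 18 arrays and had time means between 5.37 and 5.94. CUST_15095 carries the symbol of the HECT ligase UPL6. It was above background on 15 arrays, with time means between 5.58 at 6 d and 6.60 at 18 d. CUST_4518, described as a histone ubiquitination protein, had 7.24 ± 0.17 at 24 d and 6.34 ± 0.29 at 6 d, with every 24 d array above every 6 d array.

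The other E3 probes were CUST_10882, CUST_12174, CUST_12887, CUST_2545, CUST_2599, CUST_3509, CUST_5892 and CUST_9998, with ranges of time means between 0.36 and 1.18. CUST_10882 combines an SNF2 helicase and a RING finger, as in proteins that act on chromatin or DNA repair. It had means of 6.72 over the chilled times and 5.85 ± 0.12 at 0 d, where 2 of 3 arrays were well above background. CUST_3509, a ubiquitin-protein ligase, had 13.60 over the chilled times and 14.18 ± 0.09 at 0 d. The study listed both with 0 d among the times compared, so these differences, 0.87 and -0.59, are a description.

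F-box proteins give a ligase complex its choice of target. CUST_15101, an F-box family protein with a range of 1.21, had 14.13 and 13.87 at 0 d, 12.27, 12.91 and 13.27 at 6 d, 14.44, 13.73 and 13.00 at 12 d, 12.73, 12.69 and 12.94 at 15 d, 13.45, 13.08 and 12.91 at 18 d, and 12.82, 13.36 and 13.55 at 24 d. Replicate 2 of 0 d was marked as an outlier by the scanner software and dropped from the fit. Its 6, 15, 18 and 24 d arrays lay below both 0 d arrays, and its 12 d arrays spread over most of the range. CUST_5746, a Tubby F-box protein, had 8.40, 8.50 and 9.03 at 0 d, 8.84, 8.04 and 7.65 at 6 d, 7.98, 7.71 and 8.76 at 12 d, 8.91, 9.33 and 8.86 at 15 d, 8.06, 8.12 and 8.02 at 18 d, and 8.16, 8.50 and 8.77 at 24 d. Its 15 d arrays were above all 18 d arrays on the same slide, and at 12 d the array on slide 2 lay above the pair on slide 1.

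CUST_5198, an F-box family protein with a range of 0.79, had 11.54, 11.25 and 11.23 at 0 d, 11.55, 11.05 and 11.33 at 6 d, 11.06, 11.28 and 10.62 at 12 d, 10.98, 10.78 and 10.98 at 15 d, 11.35, 11.07 and 11.14 at 18 d, and 11.76, 11.61 and 11.74 at 24 d. Its 24 d arrays were above all arrays of every other time, and its 18 d arrays were above its 15 d arrays. CUST_12689, an F-box family protein with the widest range of all 35 probes, was dim. It had 4.66, 4.46 and 6.17 at 0 d, 5.97, 7.12 and 6.02 at 6 d, 6.24, 9.79 and 4.96 at 12 d, 3.62, 3.16 and 4.64 at 15 d, 4.71, 5.66 and 5.40 at 18 d, and 6.07, 4.71 and 4.23 at 24 d. All 3 arrays at 6 d were well above background and none at 0 d, with means of 6.37 ± 0.65 and 5.10 ± 0.93 (SD, n = 3 each). Its 9.79 came from replicate 2 of 12 d, without which the range was 2.56 and not 3.19, and its 6 and 0 d arrays overlapped.

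The other F-box probes were CUST_11754, CUST_13395, CUST_13660, CUST_150, CUST_6008 and CUST_8908. CUST_150 was described as a phytochrome A-associated F-box protein, with the symbol EID1, in Arabidopsis a negative regulator of far-red light signalling. It had 12.55 ± 0.17 at 18 d and 12.98 ± 0.03 at 15 d, with every 18 d array below every 15 d array. CUST_6008 carries the study's symbol HCA2, which in Arabidopsis names a different kind of protein, and had 13.61 ± 0.24 at 24 d and 14.13 ± 0.15 at 6 d, also without overlap. The kelch repeat probe CUST_8908 had the narrowest range of the 35, 0.26.

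**Figure D3:**
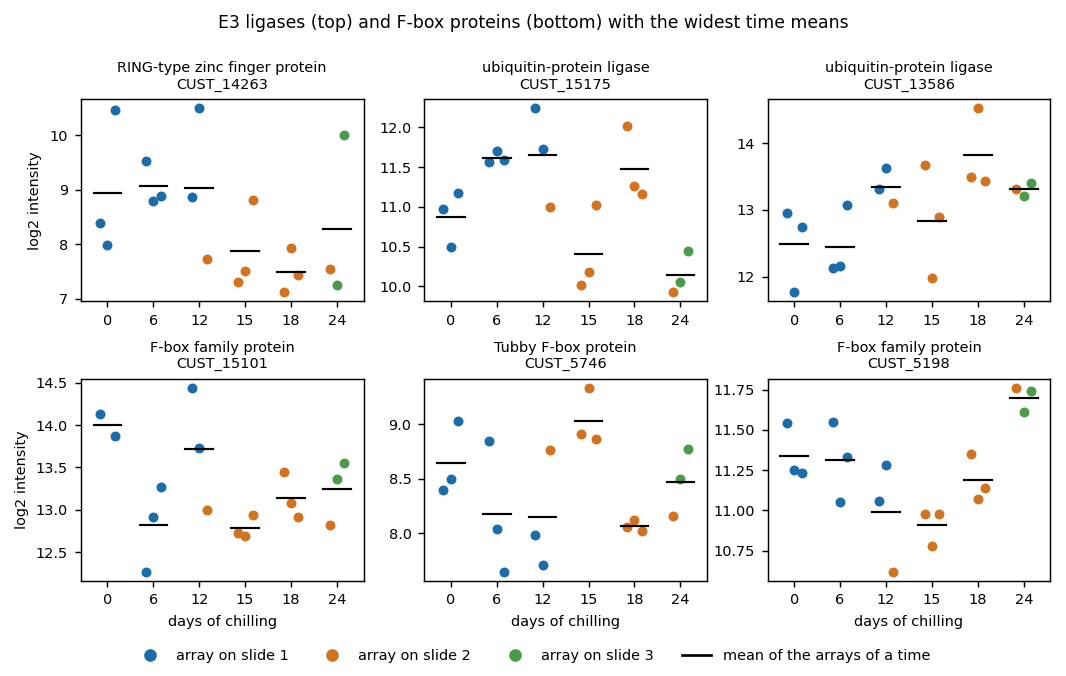
Log2 intensity of the 3 E3 probes (top) and 3 F-box probes (bottom) with the widest range of time means among those well above background on all arrays, against days of chilling, with 1 point per array coloured by slide and a line at each time mean. CUST_14263 shows single high arrays at 0, 12, 15 and 24 d, and CUST_15101 has 2 points at 0 d because 1 array was left out.

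The proteasome subunits had a higher level at every chilled time mean than at 0 d. CUST_10423 was described as PBC1, a beta subunit of the 20S core. It had 15.62, 15.53 and 15.44 at 0 d, 15.83, 15.86 and 15.78 at 6 d, 15.77, 16.04 and 15.98 at 12 d, 15.69, 15.66 and 15.70 at 15 d, 16.08, 15.97 and 15.95 at 18 d, and 15.62, 15.62 and 15.78 at 24 d. Its lowest arrays at 15 and 24 d came close to the highest 0 d array, and to 2 decimals 24 d replicates 1 and 2 equalled it. Within slide 2, every 18 d array lay above every 15 d array. CUST_14895 was described as RPN5b, a lid subunit of the regulatory particle, and had 11.81, 12.00 and 11.10 at 0 d, 11.88, 11.90 and 11.84 at 6 d, 11.81, 11.77 and 11.92 at 12 d, 11.97, 11.79 and 11.96 at 15 d, 12.05, 12.01 and 12.12 at 18 d, and 11.77, 12.03 and 12.26 at 24 d. Replicate 3 of 0 d was its lowest array, and the other two 0 d arrays lay within the spread of the chilled arrays.

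The FLC probe was spotted 7 times on each array. It had 3.77, 3.62 and 4.06 at 0 d, 3.48, 4.16 and 3.05 at 6 d, 2.96, 4.78 and 4.21 at 12 d, 3.02, 3.52 and 3.40 at 15 d, 2.82, 3.37 and 2.89 at 18 d, and 2.90, 3.61 and 3.15 at 24 d. At most 2 of its 7 spots were well above background on any array, and none was on the 18 d arrays, so its fitted difference, drawn in the plot of chilled against 0 d, rests on signal near background.

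One comparison did not enter the choice of 27 of the 35 probes. The study took them from comparisons of 12, 15, 18 and 24 d with 6 d, and the mean of all chilled times minus 0 d does not use those differences. Some of the 27, CUST_2545 and CUST_10423 among them, also stand in the list made with 0 d among the times compared. The lists made against 6 d were enough to place them here. In the deposited values all 27 differed from 6 d in at least 1 such comparison at an unadjusted p under 0.05, as did 1998 of 1998 and 1829 of 1829 probes of the 2 lists, against 31.4% of all probes. Such a choice still favours probes with a small spread between replicates. Chilled buds were therefore compared with 0 d for these probes, in limma over all 14955 probes that could be fitted.

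In chilled buds, 3 of the 27 probes rose and 1 fell at an adjusted p under 0.05, and 23 did not pass. The 4 were 14.8% of the 27, near the 14.0% of all probes that passed and below the 21.0% of the 2642 probes held from the same lists. Of all probes, 7.87% were higher and 6.09% lower, and of those from the same lists 10.7% and 10.3%. The median log2 fold change of the 27 was 0.10, against 0.03 for all probes, and 14 of the 27 were above 0. With FLC left out the counts were the same, over 26 probes. With each array scaled to its 75th percentile in place of quantile normalization, none of the 27 was higher and 2 were lower, CUST_12174 and the F-box probe CUST_13395. Of all probes, 12.0% passed with this scaling. There the 3 probes that rose kept positive differences and did not pass, with adjusted p of 0.112 for CUST_11754, 0.116 for CUST_2545 and 0.153 for CUST_10423. Without replicate 2 of 12 d, 3 probes were higher and 3 lower, with CUST_4716 and CUST_13395 added to the lower ones. In that fit 17.7% of all probes passed. Without a single array of 0 d 1 of the 27 passed, which was CUST_11754 without replicate 1, CUST_12174 without replicate 2 and the polyubiquitin CUST_1863, lower, without replicate 3. The share of all probes that passed also fell there, from 14.0% to 6.44%, 8.31% and 8.02% in the same order. Without replicate 2 of 6 d the count was 1, and without replicate 3 of 6 d, replicate 1, 2 or 3 of 15 d or replicate 2 of 24 d it was 2. Of all probes, 11.5% passed in the first of these fits and 11.7 to 12.4% in the others.

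The F-box family protein CUST_11754 rose by 0.75 on the log2 scale (standard error 0.22, adjusted p = 0.0367, limma with Benjamini-Hochberg adjustment), or 1.69-fold. It had 7.46, 7.14 and 6.35 at 0 d, 6.95, 7.41 and 7.49 at 6 d, 7.62, 7.30 and 7.84 at 12 d, 7.94, 7.94 and 7.71 at 15 d, 7.97, 7.87 and 8.39 at 18 d, and 8.27, 7.94 and 7.39 at 24 d. All 15 and 18 d arrays lay above all 0 d arrays, while the 6 d arrays overlapped them, and 2 of 3 arrays at 0 d were well above background. Without replicate 3 of 0 d, the lowest array, the adjusted p was 0.235. The probe failed to pass in 7 of the 18 fits with 1 array left out. Within slide 1, 6 and 12 d minus 0 d gave 0.39 (standard error 0.29).

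The C3HC4 RING finger protein CUST_2545 rose by 0.46 (standard error 0.14, adjusted p = 0.0429, limma), or 1.38-fold. It had 7.78, 8.07 and 7.76 at 0 d, 8.10, 8.25 and 8.15 at 6 d, 7.54, 7.60 and 8.30 at 12 d, 8.44, 8.63 and 8.67 at 15 d, 8.46, 8.42 and 8.66 at 18 d, and 8.48, 8.48 and 8.78 at 24 d. Every array of slides 2 and 3 was above every array of slide 1, also at 12 d, where 8.30 came from slide 2 and 7.54 and 7.60 from slide 1. Within slide 1, every 6 d array lay above every 0 d array, while the difference of 6 and 12 d from 0 d was 0.00 (standard error 0.14). With slide as a fixed block the difference was -0.04 (standard error 0.18). CUST_2545 failed to pass in 12 of the 18 fits with 1 array left out, with adjusted p of up to 0.158 (limma).

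The ubiquitin-protein ligase CUST_12174 fell by 0.46 (standard error 0.12, adjusted p = 0.0233, limma). It had 13.35, 13.30 and 13.70 at 0 d, 13.37, 13.08 and 13.08 at 6 d, 13.39, 12.98 and 13.29 at 12 d, 13.08, 12.98 and 12.99 at 15 d, 12.94, 12.95 and 12.73 at 18 d, and 12.70, 12.81 and 12.43 at 24 d. All arrays of 15, 18 and 24 d lay below all 0 d arrays, those of 6 and 12 d overlapped them, and on slide 2 the 18 d arrays lay below the 15 d arrays. Within slide 1 the difference was -0.27 (standard error 0.18), and without replicate 3 of 0 d the adjusted p was 0.134. It failed to pass in 2 of the 18 fits with 1 array left out.

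The 20S core subunit CUST_10423 rose by 0.29 (standard error 0.08, adjusted p = 0.0355, limma), or 1.22-fold, with the values given above. Within slide 1 the difference was 0.33 (standard error 0.13), and without replicate 3 of 0 d the adjusted p was 0.14. It failed to pass in 6 of the 18 fits with 1 array left out. RPN5b had a fold change of similar size, 0.30 (standard error 0.15), and did not pass (adjusted p = 0.191). With slide as a fixed block none of the 27 probes passed, and of all probes 0.495% did. Within slide 1 no probe of the array passed. Time and slide cannot be fully told apart in these fits.

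**Figure D4:**
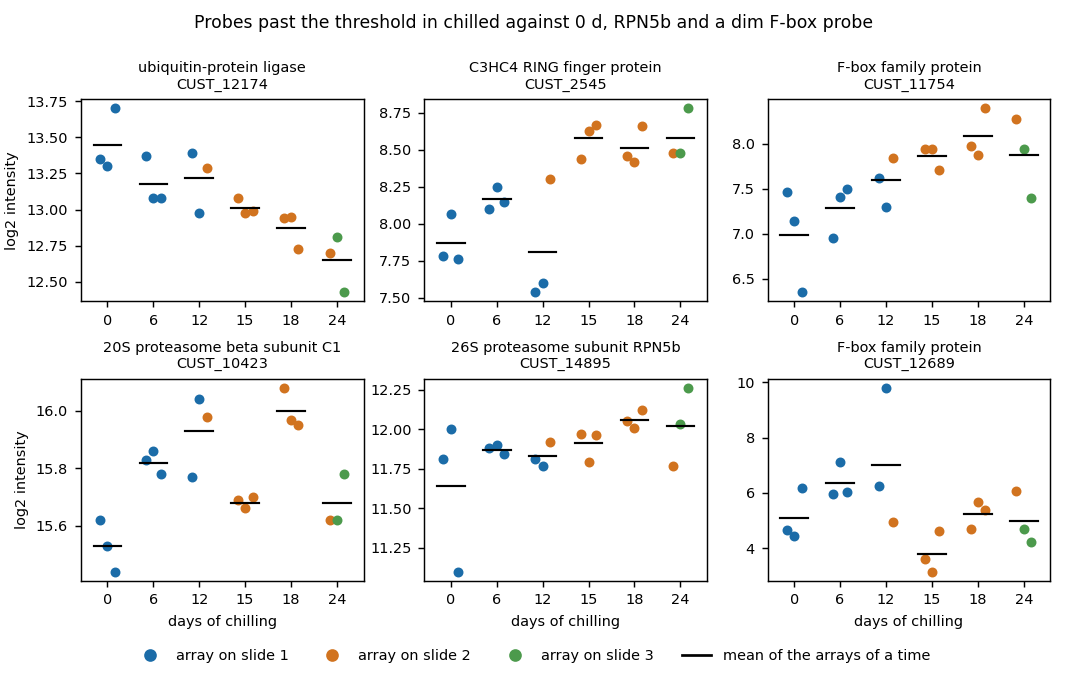
Log2 intensity of the 4 probes past an adjusted p of 0.05 in chilled against 0 d, of RPN5b and of the dim F-box probe CUST_12689, against days of chilling, with 1 point per array coloured by slide and a line at each time mean. CUST_2545 has 2 lower points from slide 1 and a higher one from slide 2 at 12 d, and the value of 9.79 for CUST_12689 is a single 12 d array.

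Other genes of the same pathway came from probes that the study filed under Proteasome or Ubiquitin mediated proteolysis, together with probes described as SKP1, a signalosome subunit, a 26S protease regulatory subunit or a SUMO-specific protease. These were 26 probes outside the 35, with 13 for the proteasome and 13 for the ubiquitin pathway, and 25 of them came from the same lists as the 27. Of the 25, 8 rose in chilled buds and 1 fell, or 36.0%, beside the 21.0% of all probes held from these lists. Since the list followed from probes that the study selected on these arrays and no set test was made, nothing is read from this share about the pathway.

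Of the 12 proteasome probes among the 25, 6 rose and none fell, and 11 had a log2 fold change above 0, with a median of 0.46. Of the 2642 probes held from the same lists, 10.7% rose and 10.3% fell. Among those, 1336 had a log2 fold change above 0, with a median of 0.01. Whether the proteasome probes differ from them as a set was not tested. With both proteasome members of the 35 added, 7 of 14 rose. The largest rise was that of CUST_3293, a predicted Populus protein filed under Proteasome, which averaged 13.27 over the chilled times and 11.91 ± 0.18 at 0 d (SD, n = 3). It rose by 1.36 on the log2 scale (standard error 0.16, adjusted p = 0.00088, limma), or 2.56-fold, and every chilled array lay above every 0 d array. RPT1A, RPT4A and RPT6A are ATPases of the ring that unfolds proteins at the mouth of the 20S core. RPT1A (CUST_4152) rose by 0.92 (standard error 0.16, adjusted p = 0.00327), RPT6A (CUST_11327) by 0.83 (standard error 0.12, adjusted p = 0.00219) and RPT4A (CUST_11060) by 0.50 (standard error 0.13, adjusted p = 0.0198). For RPT1A and RPT6A no chilled array overlapped 0 d.

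PAD2, an alpha subunit of the 20S core (CUST_4023), rose by 0.59 (standard error 0.10, adjusted p = 0.00352), again with all chilled arrays above 0 d. MEE34 (CUST_1141) rose by 0.42 (adjusted p = 0.0481, and 0.0573 with the 75th percentile scaling). The proteasome probes that did not pass were RPN8A, RPN10, RPN12a, PBB1, ATS9 and CUST_10573, with fold changes between -0.04 and 0.50. Within slide 1, the differences of the 6 that rose were all above 0, at 1.12 for CUST_3293, 0.73 for RPT1A, 0.69 for RPT6A, 0.48 for PAD2, 0.30 for RPT4A and 0.25 for MEE34, and none passed there. With slide as a fixed block the 6 also stayed above 0 and none passed, at 1.11 for CUST_3293, 0.92 for RPT6A, 0.87 for RPT1A, 0.48 for PAD2, 0.34 for RPT4A and 0.12 for MEE34, with adjusted p between 0.0836 and 0.795. Of the 6 that did not pass, 4 had the other sign there, with -0.74 for PBB1, -0.35 for RPN12a, -0.05 for CUST_10573 and 0.06 for RPN10, against 0.21, 0.50, 0.40 and -0.04 without the block. CUST_3293, RPT1A, RPT6A and PAD2 passed whichever single array was left out, with adjusted p of at most 0.0269. RPT4A did not pass without replicate 3 of 0 d (adjusted p = 0.121), and MEE34 failed to pass in 14 of the 18 fits with 1 array left out.

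Among the 13 ubiquitin pathway probes, 2 rose and 1 fell, or 23.1%, near the 21.0% of all probes held from the same lists. A signalosome subunit (CUST_14839), part of the complex that removes the cullin modifier RUB, rose by 0.55 (standard error 0.14, adjusted p = 0.0196). Its 24 d arrays all lay below its 6 and 18 d arrays and overlapped those of 0 d. ASK2 (CUST_5850), a SKP1-like protein that binds F-box proteins, rose by 0.48 (standard error 0.11, adjusted p = 0.0122), and its mean at 24 d, 13.42 ± 0.26, was near that at 0 d, 13.55 ± 0.17. Every 24 d array of ASK2 lay below every 6 and 18 d array, and 24 minus 6 d was -0.74 (adjusted p = 0.0484, limma). APC8 (CUST_14819), a subunit of the cell-cycle ligase APC, was the one that fell, by 0.40 (standard error 0.11, adjusted p = 0.0278), and was named after its value was seen. The signalosome probe did not pass without replicate 3 of 0 d (adjusted p = 0.117), and ASK2 did not pass without replicate 1 of 0 d (adjusted p = 0.0787), nor APC8 (adjusted p = 0.168). Of the other F-box partners, SKP1 (CUST_13756) and skp1 (CUST_4341) had fold changes of -0.06 and 0.02, and the RING subunit RBX1 (CUST_7753) one of 0.06, none past the threshold.

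**Figure D5:**
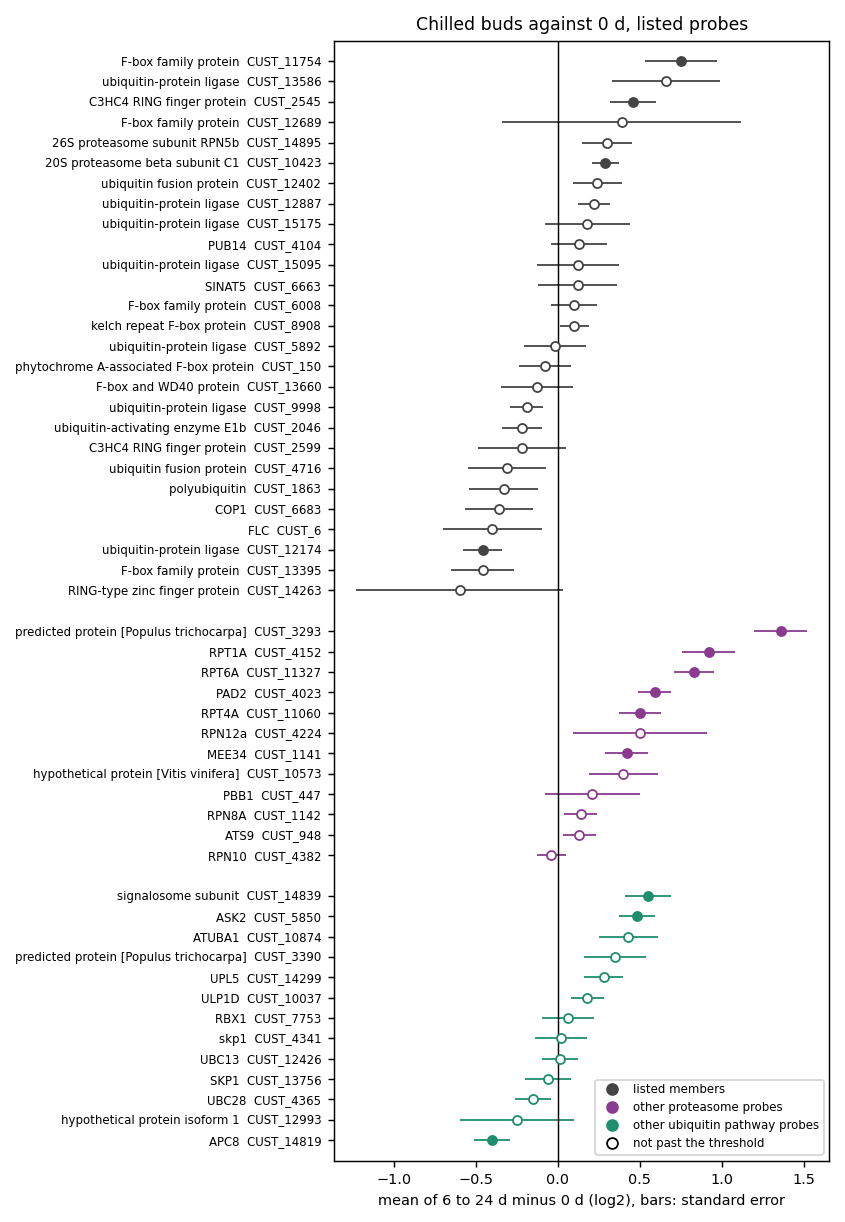
Log2 fold change of the mean of 6 to 24 d over 0 d, with limma's standard error as bars, for the 27 members listed from comparisons without 0 d (top), 12 other proteasome probes (middle) and 13 other ubiquitin pathway probes (bottom), with filled points where the adjusted p was under 0.05. The members lie on both sides of 0, with 14 above it, and 11 of the 12 proteasome probes lie above it. Of the 2642 probes held from the same lists, which include the study's falling clusters, 1336 lie above it.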

How the data were processed

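Intensities in the deposited scanner files are those of the authors' Feature Extraction (10.5.1.1 per the file headers), background-subtracted within each array. In the deposited value table the authors give log2 signals after their own quantile normalization, for 14949 probes. It correlated at 0.9999 with the levels used here on every array and was kept as an alternative. Here the processed intensities were log2-transformed without the spots that the scanner software marked as non-uniform or population outliers, replicate spots were averaged, and quantile normalization followed. Because of such marks, replicate 3 of 24 d lacked 233 probes and every other array 4 to 33.

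Limma 3.58.1 (R 4.3.3, statmod 1.5.0, jsonlite 2.0.0) fitted 6 time means to the 18 arrays. P values were adjusted by Benjamini-Hochberg over the whole array, and 0.05 was the threshold. The fit was tested on simulated data. The number of arrays limits the precision. Replicates were biological replicates of 3 plants each, per the study's methods. The members, their roles, the pathway list and the tests were chosen with earlier results of these data known. All arrays are given for the precursor, E1, E2 and proteasome members, for the 3 E3 and 3 F-box members of widest range above background on all 18 arrays, for members past the threshold in chilled against 0 d, for those below background on all arrays of a time and for FLC. Pathway probes past the threshold are named, at most 8 by size. Columns of the authors' own fold changes were not used, and their clusters entered no fit. Alternatives were other normalizations, the value table, normexp (offset 50, on the median signal), a filter on dim probes, trended and robust priors, slide and replicate number as blocks, single slides and each array left out.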

Additional observations from a re-analysis of the deposited data

How the results depend on the processing

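The main counts at an adjusted p under 0.05 were 4 of 27 members in chilled against 0 d, 9 of 25 pathway probes and 2088 of all probes there, 4 of 35 members over the 6 times, 6 in 18 against 0 d and 0 in 24 against 6 d, 6 against 0 d and 18 against 15 d. In chilled against 0 d, 2 members passed with the 75th percentile normalization, both lower and 1 of them among the 4 (CUST_12174), 2 with slide as a random block (CUST_12174 and CUST_10423) and 0 with slide as a fixed block or on slide 1 alone. Of all probes, 12.0% passed with the 75th percentile normalization and 11.8% with slide as a random block. The fixed block left 0 pathway probes and 74 of all probes, and slide 1 alone left 0 of both. It is also the one setting that turned a called value, CUST_2545, to -0.04. Over the 6 times, 2 members passed with the 75th percentile, 0 with either slide block and 16 with the plain F test at an unadjusted p. In 18 against 0 d the fixed block left 0, and in 24 against 6 d normexp gave 2. Outside chilled against 0 d, shares of all probes were counted only in the main fit and the plain F test (26.8%). Whether the changes in those counts are particular to the members was therefore not tested. With the replicate block, 2 members passed in chilled against 0 d and 1 over the 6 times, but the numbers do not pair the arrays (45 correlations between same-numbered arrays of -0.24 to 0.28, 7 over 0.1). Leaving out 1 array gave 1 to 6 members in chilled against 0 d, 963 to 2649 of all probes, 0 to 7 over the 6 times, 1 to 9 in 18 against 0 d, 0 to 1 in 24 against 6 d and 0 to 1 in 6 against 0 d. The lowest for all probes was without replicate 1 of 0 d, and the highest without replicate 2 of 12 d. The causes were not tested. The deposited value table, the filter on dim probes and the trended prior moved no count by more than 1.5 times.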
